A study of Rattus norvegicus with 4 samples.

Results

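The HOX genes code for homeodomain transcription factors that set position along the body axis, and in mammals 39 of them lie in 4 clusters, HOXA, HOXB, HOXC and HOXD. They were described here in the inner medulla, the deepest kidney zone, in which the collecting ducts concentrate the urine. Members were all symbols in the table of inner medulla transcripts made of Hox, a letter from a to d and a number, in any letter case and within joined loci as well. That gave 36 of 19594 symbols, on 30 loci. Hoxa4, Hoxa10 and Hoxd11 are not analysed here.

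Total RNA came from female and male Sprague Dawley rats, outbred and without transgene, bought at 13 to 15 weeks of age. Both sexes began a chow with 0.49% NaCl at 14 to 16 weeks of age, ate it for 2 weeks and had no other treatment. Each sex was represented by 2 pools of 4 rats, so 8 rats per sex and 4 libraries in all, with 34552171 to 41945343 read pairs and 89.6% to 90.3% of reads mapped. The title of the series concerns acclimation to a high salt diet and its dependence on sex, and the comparison in these libraries is of female with male inner medulla on 1 diet. Levels are FPKM, fragments per kilobase of transcript and per library size in fragments, with 1 value per sex in which the authors joined both pools. The spread between pools is therefore unknown, values carry no SD, and the error measure of each comparison is the p-value or the adjusted q-value of the authors' deposited table.

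The labelled tissue was checked against marker genes. Collecting duct markers stood highest, with the water channel Aqp2 at 8463 FPKM for females and 11693 for males and the sodium pump regulator Fxyd4 at 4006 and 5915. Markers of the thick limb, a segment of cortex and outer medulla, were present too, with Umod at 830 and 904 FPKM and Slc12a1 at 231 and 199. The other markers of that list, of thick limb and distal tubule, were far lower. The proximal tubule marker Kap, of a segment of the cortex and outer stripe, was at 910 FPKM for females and 131 for males. The other proximal tubule markers were far lower, and the list summed to 932 and 143 FPKM. In bulk tissue, fewer cells of a type and less RNA per cell cannot be told apart.

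Within a cluster the genes stand in the order of their paralogue groups, numbered 1 to 13 from the anterior to the posterior end, and members of 1 group in different clusters are the closest relatives. During development genes of low number are switched on earlier and further forward, which is called collinearity. HOX proteins bind DNA together with cofactors of the TALE class, and silent HOX chromatin is held by Polycomb proteins. In mice the group 11 genes are needed for the kidney to form, and the promoter of Hoxb7 is widely used to drive transgenes in the ureteric bud and collecting duct.

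The inner medulla of both sexes held HOXB and HOXD transcripts at high level and HOXA and HOXC transcripts at low level. Summed over loci, HOXB stood at 672 FPKM for females and 713 for males and HOXD at 284 and 290. HOXC summed to 25.2 and 20.0 FPKM and HOXA to 9.59 and 7.38. HOXB thus made up 68.5% of the summed mean level of the 30 HOX loci, HOXD 28.4%, HOXC 2.24% and HOXA 0.840%. These sums leave out Hoxa4, Hoxa10 and Hoxd11 and the unnamed loci that lie among the HOX genes. Of the 30 loci, 15 reached a mean of 1 FPKM and 6 reached 50 FPKM, and those 6 held 91.2% of the sum. The sum over the 30 loci was 990 FPKM for females and 1030 for males.

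**Figure D1:**
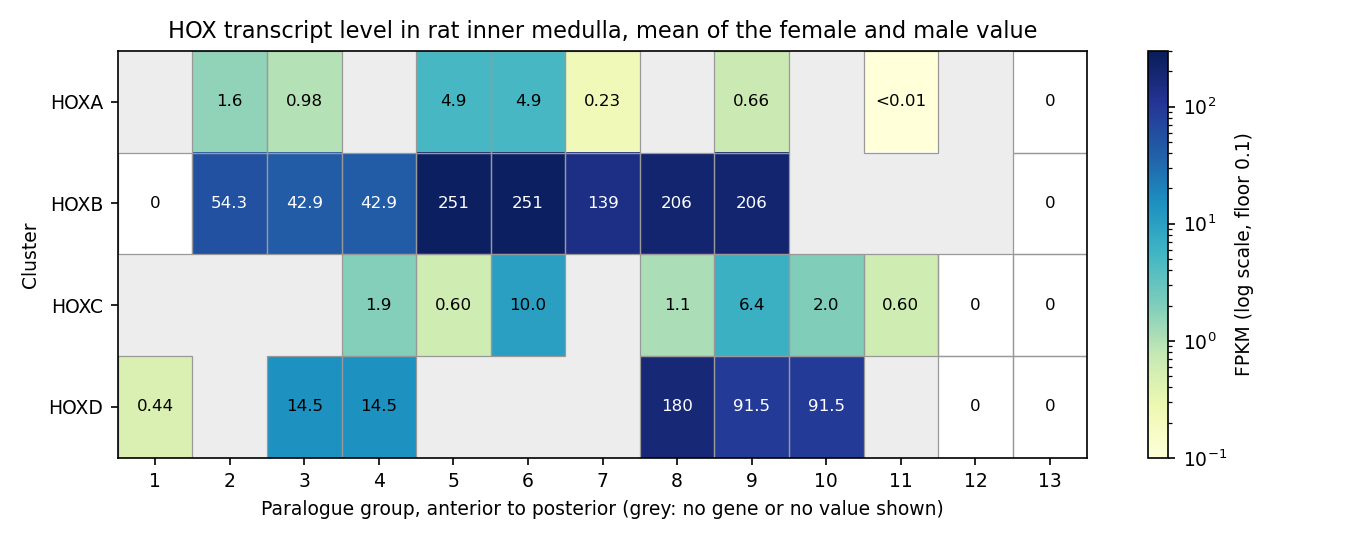
Mean of the female and male FPKM of HOX genes (colour, log scale, with the value printed in the cell), with clusters as rows and paralogue groups 1 to 13 as columns. Genes on a joined locus carry the value of that locus, white cells marked 0 are listed at 0 in both sexes, and the high values lie in groups 2 to 9 of HOXB and 8 to 10 of HOXD.

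In 6 loci the authors' assembly joined neighbouring HOX genes, 12 symbols in all: Hoxa5 with Hoxa6, Hoxb3 with Hoxb4, Hoxb5 with Hoxb6, Hoxb8 with Hoxb9, Hoxd9 with Hoxd10, and Hoxd3 with Hoxd4. A joined value belongs to both genes together and cannot be divided between them. Without the joined loci HOXB held 48.3% of the summed mean level, and HOXB and HOXD lay close. Left above 0 in HOXB were then Hoxb2 and Hoxb7, at means of 54.3 and 139 FPKM. In HOXD they were Hoxd8, at 180 FPKM, and Hoxd1, at 0.439. All 36 symbols are known to RefSeq and stand on the same chromosome in its assembly GRCr8 as in the deposited rn5 loci. Older names overlap, however: RefSeq lists Hoxa9 as a former name of Hoxa7, Hoxa11 of Hoxa2, Hoxa10 of Hoxa11 and Hoxc8 of Hoxc9. The intervals of 16 of the 30 loci are given for other loci as well, so they are not positions of single genes. Whether reads were counted by strand is not given in the sources used here, and overlapping sense and antisense transcripts are uncertain for that reason.

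HOXB lies on chromosome 10 (rn5). Hoxb5 and Hoxb6, at 83942171 to 84005728, an interval listed for Hoxb2 and for Hoxb3 with Hoxb4 as well, held the highest HOX value of all, 243 FPKM for females and 259 for males. Hoxb8 and Hoxb9, at 83915330 to 83936653, stood at 207 and 204 FPKM. Hoxb7, at 83937955 to 83941372, was at 127 FPKM for females and 151 for males. Among all loci with a symbol these 3 stood at percentiles 98.1, 97.7 and 96.5 of mean FPKM.

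Towards the anterior end of HOXB the levels were lower but still high among all genes. Hoxb2 was at 52.8 FPKM for females and 55.8 for males. Hoxb3 and Hoxb4 together were at 42.8 and 42.9 FPKM, at percentile 88.4. The cluster ended sharply on both sides: Hoxb1, the most anterior member, and Hoxb13, the most posterior one, were listed at 0 in both sexes.

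HOXD lies on chromosome 3 (rn5). Hoxd8, a locus of its own whose interval, 68090956 to 68142130, is listed for Hoxd3 with Hoxd4 as well, was at 178 FPKM for females and 183 for males. Hoxd9 and Hoxd10, at 68072513 to 68088227, stood at 91.4 and 91.6 FPKM. The locus of Hoxd3, Hoxd4 and the microRNA gene Mir10b was far lower, at 14.5 FPKM in each sex, and Hoxd8 stood 12.3-fold above it in females and 12.6-fold in males. Hoxd1, at 68151155 to 68153295, was at 0.312 FPKM for females and 0.566 for males. Both posterior genes, Hoxd12 and Hoxd13, which act in digits and the urogenital tract, were listed at 0.

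Of the 36 members, 17 have a promoter in the RefSeq table of build GRCr8, 250 bases before to 50 after the gene start, among them each HOXD gene analysed. Levels in HOXD ran from 0 to 180 FPKM within 1 cluster. The promoters of Hoxd8, the highest HOXD locus, and of Hoxd10, Hoxd4, Hoxd1 and Hoxd13 are therefore shown. They stand in falling order of the value of their locus, which for Hoxd10 and Hoxd4 is a joined one. Each is written 5′ to 3′ on the coding strand, and capitals mark CpG dinucleotides, the sites of DNA methylation, whose density is high in the CpG islands that Polycomb proteins bind.
Hoxd8 (chr3:80014973-80015272, plus strand): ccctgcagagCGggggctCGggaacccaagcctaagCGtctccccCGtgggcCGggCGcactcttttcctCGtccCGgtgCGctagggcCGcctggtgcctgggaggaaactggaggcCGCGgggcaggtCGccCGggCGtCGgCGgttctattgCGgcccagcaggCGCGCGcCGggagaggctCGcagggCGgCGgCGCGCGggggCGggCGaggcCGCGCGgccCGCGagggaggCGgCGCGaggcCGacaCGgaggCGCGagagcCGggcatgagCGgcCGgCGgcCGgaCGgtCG
Hoxd10 (chr3:80001697-80001996, plus strand): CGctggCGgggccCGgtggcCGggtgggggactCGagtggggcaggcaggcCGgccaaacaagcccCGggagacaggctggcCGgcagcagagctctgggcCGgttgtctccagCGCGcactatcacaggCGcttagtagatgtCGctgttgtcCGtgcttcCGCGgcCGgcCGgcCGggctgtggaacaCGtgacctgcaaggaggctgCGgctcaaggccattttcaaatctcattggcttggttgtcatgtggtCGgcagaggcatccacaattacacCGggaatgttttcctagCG
Hoxd4 (chr3:80021636-80021935, plus strand): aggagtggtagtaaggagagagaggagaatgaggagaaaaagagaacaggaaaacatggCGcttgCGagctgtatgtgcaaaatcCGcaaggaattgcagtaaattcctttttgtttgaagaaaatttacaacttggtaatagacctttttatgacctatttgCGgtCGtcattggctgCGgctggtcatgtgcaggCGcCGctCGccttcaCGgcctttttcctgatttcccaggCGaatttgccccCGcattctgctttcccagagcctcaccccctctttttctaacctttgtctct
Hoxd1 (chr3:80072791-80073090, plus strand): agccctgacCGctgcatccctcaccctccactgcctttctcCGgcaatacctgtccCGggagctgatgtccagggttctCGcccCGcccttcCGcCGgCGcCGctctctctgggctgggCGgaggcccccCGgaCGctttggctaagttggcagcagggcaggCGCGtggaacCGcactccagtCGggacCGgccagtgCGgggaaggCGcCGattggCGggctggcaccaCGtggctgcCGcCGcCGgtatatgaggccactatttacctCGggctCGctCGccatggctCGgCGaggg
Hoxd13 (chr3:79977827-79978126, plus strand): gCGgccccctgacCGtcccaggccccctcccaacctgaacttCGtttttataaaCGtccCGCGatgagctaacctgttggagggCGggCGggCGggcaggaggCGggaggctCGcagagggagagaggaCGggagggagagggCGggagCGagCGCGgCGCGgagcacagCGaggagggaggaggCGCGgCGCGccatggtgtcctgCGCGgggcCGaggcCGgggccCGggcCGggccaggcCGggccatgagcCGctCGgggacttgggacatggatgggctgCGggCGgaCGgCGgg

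CpG content did not follow the transcript level across HOXD. Hoxd8 had 49 CpG in 300 bases and Hoxd10 had 24, but Hoxd13, listed at 0, had 36 and Hoxd1, under 1 FPKM, had 30. Hoxd4, at 14.5 FPKM with its joined partners, had 12. The remaining HOXD promoters did fall with the level: Hoxd9 had 27 CpG, Hoxd3 had 19 and Hoxd12, listed at 0, had 16. Over the 17 promoters the median was 21 CpG against 7 over all 33469 promoters of the table, and 12 of the 17 had at least 15, as did 32% of all promoters. A search of both strands for TGATTNAT, the composite site of PBX with HOX proteins, matched 1 of the 17, Hoxa2, against 3.18% of all promoters. TGACAG, the MEIS site, matched 3 (Hoxa2, Hoxa3 and Hoxa13) against 19% of all. TTTATNG, a site of CDX and posterior HOX proteins, matched Hoxa9 alone (11.3% of all promoters), and TATAAA, the TATA box, matched Hoxa9 and Hoxd13 (14.2% of all). In Hoxa9 the TTTATNG and TATAAA matches overlap. A match is a run of letters and no measured binding.

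HOXC lies on chromosome 7 (rn5), and none of its genes reached the level of the main HOXB and HOXD loci. Hoxc6 was highest, at 10.7 FPKM for females and 9.40 for males, followed by Hoxc9 at 7.32 and 5.44. Hoxc10 was at 2.25 and 1.76 FPKM, Hoxc4 at 2.22 and 1.55, and Hoxc8 at 1.42 and 0.780. Hoxc5 and Hoxc11 were under 1 FPKM in both sexes. Hoxc12 and Hoxc13, the latter known for its part in hair and nails, were listed at 0.

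HOXA lies on chromosome 4 (rn5) and had the lowest sum over the loci analysed, which leave out Hoxa4 and Hoxa10. Hoxa5 and Hoxa6 together were at 5.65 FPKM for females and 4.11 for males, and Hoxa2, which patterns hindbrain and pharyngeal arches, at 1.76 and 1.41. Hoxa3 lay at the border of 1 FPKM, at 1.02 and 0.938. Hoxa9 (0.660 and 0.655 FPKM) and Hoxa7 (0.302 and 0.153) were lower still. Hoxa11 had 0.00776 FPKM for females and 0 for males, and Hoxa13 was listed at 0 in both. A second row named Hoxa11, and a second named Hoxa9 that is joined with Mir196b, were also at 0 and were not taken.

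The antisense transcript of Hoxa11 is listed under its older symbol RGD1564419, which RefSeq gives to the long noncoding RNA Hoxa11-as and to no other gene, on 2 rows. One row was at 4.64 FPKM for females and 3.30 for males and the other at 1.04 and 1.16. Both carry an interval that is listed for 12 loci, Hoxa11 among them, so how reads were divided between the sense and antisense genes is uncertain. Neither was called: the authors' deposited table gave q = 0.943 to the first and q = 0.999 to the second.

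Read across clusters, both ends of the paralogue series were low in the members analysed. No member analysed of group 11, 12 or 13 reached a mean of 1 FPKM, nor did Hoxb1 and Hoxd1. Each member analysed of groups 2, 4, 6, 8 and 10 reached it. In groups 3, 5, 7 and 9 the members at lower level were Hoxa3, Hoxc5, Hoxa7 and Hoxa9, and the others reached it. All 4 genes of group 13 and both of group 12 were listed at 0. Of group 11, Hoxd11 is not analysed, and the 2 members analysed reached at most 0.596 FPKM, in Hoxc11. A listed 0 can be a failed estimate in such tables, but the 7 HOX loci at 0 in both sexes are marked as not tested, not as failed. Of all loci, 26.3% were at 0 in both sexes.

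The difference in level between close relatives ranged widely. There were 26 pairs of genes of the same paralogue group in different clusters, both above 0. Of these, 17 differed at least 10-fold in mean FPKM, 7 of them at least 100-fold, and 6 differed by less than 3-fold. Genes on a joined locus carry its value, so some pairs repeat the same loci and the pairs are not independent counts. The pair of Hoxc11 with Hoxa11, among the 7, rests on a mean of 0.00388 FPKM for Hoxa11. Hoxb7 stood 420-fold above Hoxa7 in females and 986-fold in males. Hoxb8 with Hoxb9 stood 313-fold above Hoxa9 in females and 312-fold in males, but 28.2-fold and 37.6-fold above Hoxc9. Hoxd8 was 125-fold and 235-fold above Hoxc8. Hoxd9 with Hoxd10 stood 40.6-fold above Hoxc10 in females and 52.0-fold in males, and Hoxb2 29.9-fold and 39.6-fold above Hoxa2. In contrast, Hoxb8 with Hoxb9 stood 1.16-fold above Hoxd8 in females and 1.12-fold in males. Hoxc6 was 1.89-fold and 2.29-fold above Hoxa5 with Hoxa6, and Hoxb3 with Hoxb4 was 2.96-fold above Hoxd3 with Hoxd4 in each sex. These ratios are of FPKM, which are per transcript length, and those of low genes rest on few fragments. The 14 highest loci had the same order in females and in males. With 1 value per sex the spread that would separate neighbours in that order is unknown.

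MicroRNA genes lie between HOX genes, Mir10a and Mir10b beside group 4 and the Mir196 genes near group 9. Loci named for Mir10a, Mir196a, Mir196b, Mir196c and Mir615 alone, 5 in all, were listed at 0 in both sexes. Total RNA libraries of this kind do not keep mature microRNAs, so these values say nothing of their abundance. The mature sequences from RefSeq (build GRCr8) are shown because Mir10b and Mir196b share a locus with HOX genes and because their seeds, bases 2 to 8, here in capitals, group them.
rno-miR-10a-5p: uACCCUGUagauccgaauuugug
rno-miR-10b-5p: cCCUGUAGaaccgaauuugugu
rno-miR-196a-5p: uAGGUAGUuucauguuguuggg
rno-miR-196b-5p: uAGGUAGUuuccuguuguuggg
rno-miR-196c-5p: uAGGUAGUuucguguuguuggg

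The 3 miR-196 sequences share 1 seed although they come from HOXC, HOXA and HOXB. The annotated seeds of miR-10a and miR-10b differ, because the listed miR-10b starts at base 3 of miR-10a. Aligned there, the 2 sequences differ at 1 of 21 compared bases, U12A, counted from 1 at the 5′ end of miR-10a with the miR-10a base first.

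No HOX locus was called between the sexes. Of the 30 loci, 20 with 26 symbols were tested by the authors, and 0 had q under 0.05 in the authors' deposited table, against 2.34% of all 20307 tested loci. The count at an unadjusted p under 0.05 in that table of the authors was also 0, against 9.77% of all tested loci. The test of that table, laid out as a Cuffdiff gene comparison, was the single one available. The lowest p was that of Hoxd1, for which the authors' deposited table lists p = 0.128 and q = 0.756, and the next that of Hoxb7, p = 0.132 and q = 0.763. A p that misses the threshold does not show that the sexes are alike.

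**Figure D2:**
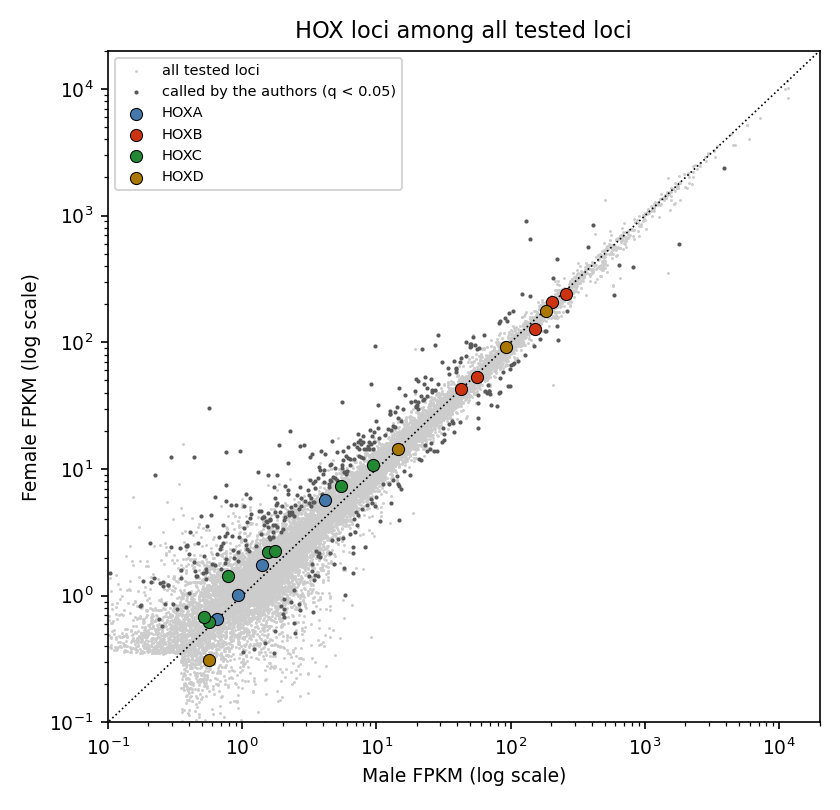
FPKM in males (x axis) and females (y axis), both on log scales, for all tested loci with a mean FPKM from 0.1 upwards and no 0 in either sex (light grey), those called by the authors (dark grey) and the tested HOX loci (coloured by cluster). HOXB loci and those of HOXD other than Hoxd1 lie close to the dotted line of equal values, and HOXA and HOXC loci lie at low level on the line or on the female side of it.

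The high HOX loci had nearly the same value in both sexes. The 8 tested loci between 12 and 300 FPKM differed by a median of 1.02-fold and at most by 1.19-fold, in Hoxb7, which was higher in males. Among the 6518 tested loci of that range the smallest fold called by the authors was 1.46. Hoxd9 with Hoxd10, Hoxd3 with Hoxd4 and Hoxb3 with Hoxb4 differed by 1.002-fold, 1.003-fold and 1.003-fold. Of the 20 tested HOX loci, 8 lay within 0.1 of 0 on the log2 scale.

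The low loci varied more. Hoxc8 was 1.83-fold higher in females, a log2 ratio of 0.87 to which the authors' deposited table gave q = 0.976. This was the largest fold among the 15 loci that reached a mean of 1 FPKM and the single one past 1.5-fold there. Among all 16888 loci at that minimum with no 0 in either sex, 7.65% were past 1.5-fold towards females and 6.08% towards males. The next largest log2 ratios were 0.52 for Hoxc4, 0.46 for Hoxa5 with Hoxa6, 0.43 for Hoxc9 and 0.35 for Hoxc10, each higher in females. Their q-values in the authors' deposited table were 0.967, 0.900, 0.999 and 0.980. Under 1 FPKM, Hoxd1 was 1.82-fold higher in males, and Hoxa7, which was not tested, was 1.97-fold higher in females. Among tested loci of 1 to 12 FPKM the smallest fold called was 1.47 and the median fold of the called ones 2.40, and the fold of Hoxc8 lay between them.

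**Figure D3:**
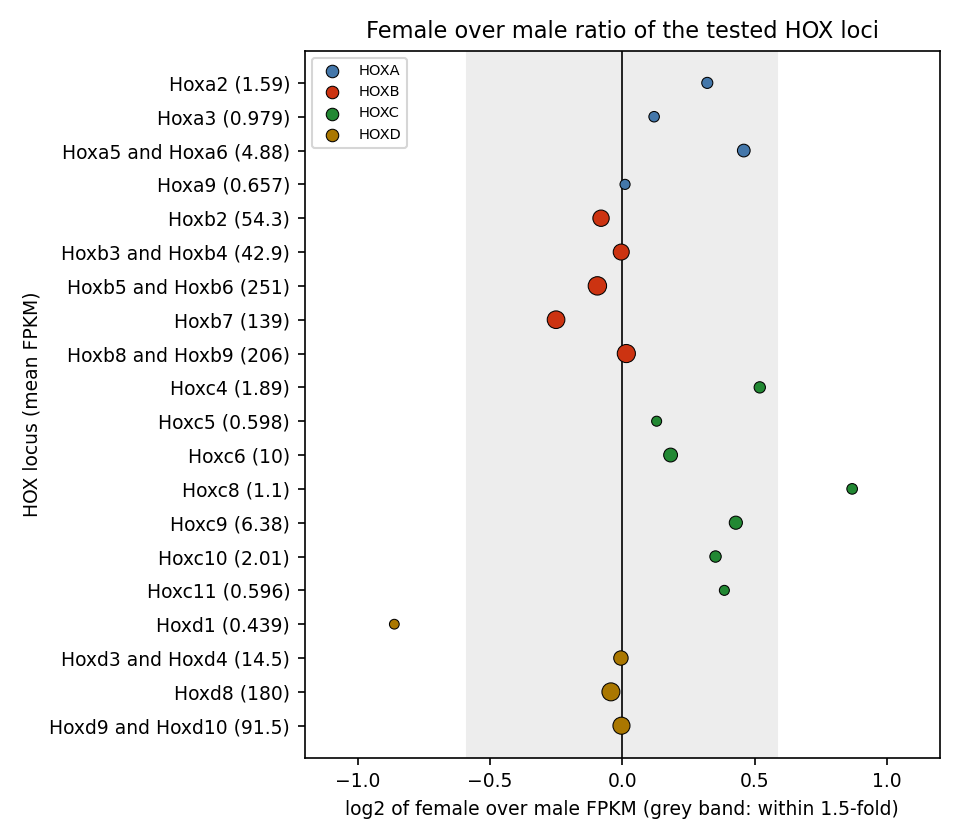
The log2 ratio of female over male FPKM of the 20 tested HOX loci, ordered by cluster and paralogue group, with the mean FPKM in brackets and the point size growing with it. Points in the grey band differ by less than 1.5-fold, and Hoxc8 (0.87) and Hoxd1 (-0.86) lie outside it.

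The direction of the values was counted by cluster after they were seen. In HOXC 7 of 7 tested loci had the higher value in females, with log2 ratios from 0.13 to 0.87 and a median of 0.39. Of all tested loci in the same range of mean FPKM, 53.6% were higher in females. HOXA had 4 of 4 higher in females, median 0.22, beside 54.4% of all tested loci in its range. In HOXB 4 of 5 were higher in males, median -0.08, in a range where 33.6% of all tested loci were higher in females. All 4 tested HOXD loci were higher in males, median -0.02, where 48.8% of loci in its range were higher in females. That range, 0.439 to 180 FPKM, is widened by Hoxd1, so 48.8% is not a share at like level for the other HOXD loci. None of these differences was called, and loci of a cluster share their libraries and, for many, an interval, so they are not independent counts.

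Markers of several cell types differed between the sexes in the same samples, and their calls stand beside the 2.34% called of all tested loci. Of the marker lists, the widest ratio of summed levels between the sexes was that of the proximal tubule markers, with 932 FPKM for females and 143 for males, nearly all of it from Kap, and 4 of 4 tested were called higher in females. Of 7 interstitial fibroblast markers 6 were called, each higher in females, and their summed level was 137 FPKM for females and 80.4 for males. Dcn, decorin, had 90.5 and 57.6 FPKM and, per the authors' deposited table, q = 0.00391. Col1a2, at 13.5 and 8.24 FPKM, was the member not called, and no marker of the list was at 0. The 5 collecting duct markers summed to 14276 FPKM for females and 19748 for males, with 0 called. Of the other marker lists, called genes higher in females were 3 of 6 tested for urothelium, 1 of 4 for thin limb, 1 of 5 for thick limb and distal tubule, 1 of 2 for podocytes and 1 of 3 for leukocytes. Among 5 endothelial markers 1 was called higher in males. Their summed level went the other way, with 134 FPKM for females and 107 for males and a median log2 ratio (female over male) of 0.36. Of 2 smooth muscle markers 0 were called. The part of cell makeup in the HOX values was not tested.

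The 15 HOX loci that reached a mean of 1 FPKM had a median log2 ratio (female over male) of 0.02, beside -0.02 over all 16888 loci at the same minimum. Of the 15, 8 were higher in females and 7 in males, and of all 20 tested HOX loci 12 and 8. The median depended on the loci taken: it was 0.12 at a minimum of 0.5 FPKM, 0.13 with no minimum and 0.32 without the joined loci, and it turned to -0.0044 at a minimum of 5 FPKM.

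Beside the HOX genes stood 6 lists: TALE cofactors, Polycomb genes, trithorax and demethylase genes, retinoic acid genes, related homeobox genes and kidney developmental genes. Of their 65 tested genes 4 were called, or 6.15%, beside 2.34% of all tested loci. With that share over all loci, a count of 0 in a list of 8 to 17 genes says nothing particular about the list. Of the TALE cofactors, which bind DNA beside HOX proteins, 8 were tested and 0 called in the authors' deposited table. Pbx2 was at 15.6 FPKM for females and 16.9 for males and Pbx3 at 14.8 and 17.7. Meis2 was at 9.41 and 7.62 FPKM. Meis1, at 4.24 and 2.31 FPKM, had the lowest p of the list, and the authors' deposited table lists p = 0.00275 and q = 0.0888 for it.

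**Figure D4:**
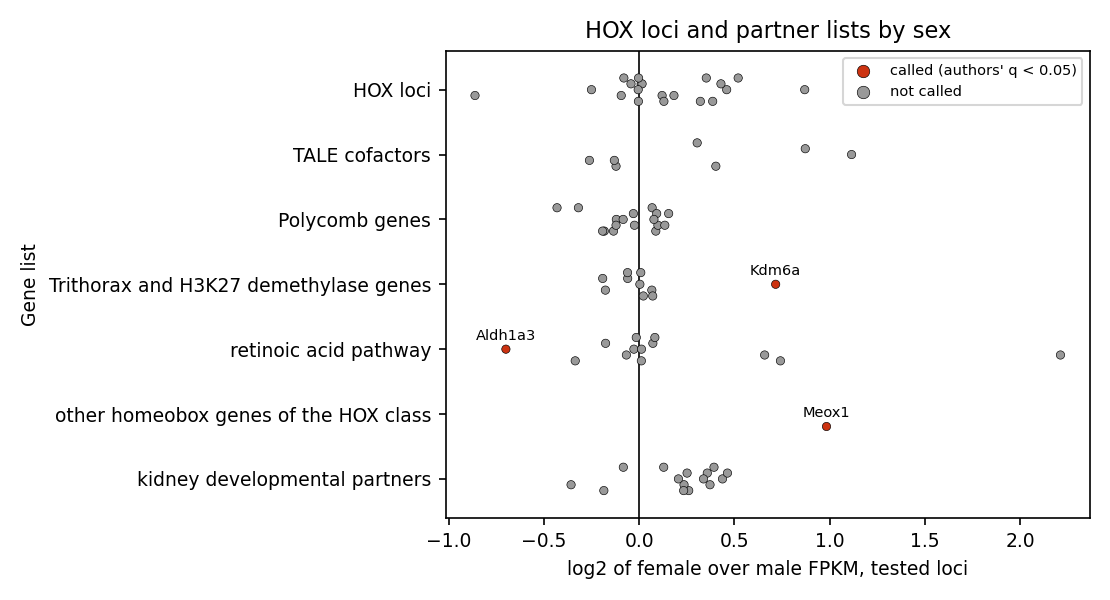
The log2 ratio of female over male FPKM (x axis) of tested loci among the HOX genes and 6 other gene lists (rows). The lists hold cofactors, chromatin genes, retinoic acid genes, related homeobox genes and kidney developmental genes. Red points with names, 3 of those drawn, were called by the authors, and 0 of the 20 HOX loci are red.

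Of the chromatin genes that keep HOX clusters silent or active, 16 of 17 Polycomb genes and all 10 trithorax and demethylase genes reached a mean of 1 FPKM. None of 17 tested Polycomb genes was called, beside 2.34% of all tested loci, and their median log2 ratio was -0.03. Ezh1, a histone methyltransferase, was at 55.9 and 61.3 FPKM and its relative Ezh2, known from dividing cells, at 1.78 and 1.81. Ring1 was at 39.9 and 43.4 FPKM, Phc2 at 33.4 and 38.2 and Bmi1 at 21.4 and 22.7. Of 10 trithorax and demethylase genes, Kdm6a was called, with 9.41 FPKM for females and 5.72 for males and, from the authors' deposited table, q = 0.00391. It removes the Polycomb mark from histone H3 and escapes X inactivation in mammals. Psip1 was at 29.1 and 32.9 FPKM and Ash2l at 23.6 and 24.6. Kmt2a, the methyltransferase that keeps HOX genes active, was at 7.33 and 7.22 FPKM.

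Retinoic acid switches on HOX genes in embryos. Of 14 tested genes of its pathway 2 were called, beside 2.34% of all tested loci. Aldh1a3, an enzyme that makes retinoic acid, was among them, at 79.2 FPKM for females and 129 for males, and the authors' deposited table gave q = 0.00391 to it. Aldh1a1 was at 266 and 336 FPKM and the receptor Rara at 27.6 and 27.9, neither called.

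Other homeobox genes near the HOX class were mostly at or near 0: 8 of 12 in the table were listed at 0 in both sexes, among them Evx2, the neighbour of Hoxd13. Meox1 was the single one tested, at 6.22 FPKM for females and 3.15 for males, and the authors' deposited table calls it with q = 0.0173. Of 15 tested kidney developmental genes 0 were called, beside 2.34% of all tested loci. Pax8 was at 155 and 199 FPKM, Gata3 at 115 and 100.1, Pax2 at 68.1 and 77.5 and Cux1 at 43.3 and 45.9. Six2 and Gdnf, genes of the embryonic kidney mesenchyme, were listed at 0 in both sexes.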

How the data were processed

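The authors deposited 1 table of loci laid out like a Cuffdiff gene comparison, where pools 1 and 2 are joined as female and 3 and 4 as male, per the file headers. Its values were read as FPKM made by the authors, since no header names the unit. Per the submitters' processing notes, TopHat2 2.1.1, Cufflinks 2.2.1, StringTie, cutadapt and FastQC were used with build rn5, in no stated role or order. Each p-value and q-value was deposited by the authors, and their deposited log2 fold and test statistic, handled as a score because of spreadsheet errors, are male over female. Read counts per library and the percent mapped were deposited by the authors in a second table.

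The log2 ratio was recomputed as female over male, within 4.19e-05 of the deposited one in size. No pseudocount was added. A locus was called at q under 0.05. Of several rows of a symbol the one of highest summed value was taken. Named are HOX loci of mean FPKM of at least 1, low or joined ones by count or by name, and called or highest members of partner and marker lists; Meis1, Ezh2, Kmt2a, Evx2, Six2 and Gdnf were named after their values were seen. A few genes of these lists enter the counts and sums but are not reported here by name. Members and lists were chosen with earlier results of these data known. The planned limma fit needs values per pool and was not run. Python 3.11.15, pandas 2.3.3 and numpy 2.4.6 were used, and the adjustment of p-values was tested on simulated data. Depth per library is known but not per locus, so no counting interval was set.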

Additional observations from a re-analysis of the deposited data

How the results depend on the processing

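The count of 0 called HOX loci was the same at q under 0.1 and 0.01, with q adjusted again over loci that reach 1 FPKM, reach 5 FPKM or have a symbol, over every row with a HOX symbol and without joined loci. The count of loci past 1.5-fold, 1 as reported, was 0 with a pseudocount of 1 and with a minimum of 5 FPKM, and 4 with no minimum (among them Hoxa7 and Hoxc8 towards females and Hoxd1 towards males). The median log2 ratio, 0.02 as reported, was 0.13 with no minimum, 0.12 with a minimum of 0.5 FPKM and 0.32 without joined loci; it was -0.0044 with a minimum of 5 FPKM and 0.03 after rescaling by the median of all loci. Without joined loci the share of HOXB was 48.3% and 9 loci, not 15, reached 1 FPKM, since 6 joined loci were left out. The partner lists held 4 called genes at q under 0.05, 6 at q under 0.1 and 2 at q under 0.01, thresholds tried after seeing the data. Leaving out each pool was not run, since the values join both pools. No paired analysis was possible because the table gives 1 value per sex.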

Other observations

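Transcribed loci without a gene name lay among the HOX genes. Of 21 loci within the spans of the 4 clusters that carry no HOX symbol, 14 have no symbol at all, and 12 of these had a mean of at least 1 FPKM. The highest, in HOXD in the interval of Hoxd8, was at 34.6 FPKM for females and 30.1 for males, above Hoxd3 with Hoxd4. In HOXB 2 such loci in the interval of Hoxb2 were at 27.2 and 22.6 FPKM and at 22.2 and 27. In HOXA an unnamed locus on chromosome 4 (146827359 to 146828449, rn5) was at 12.8 FPKM for females and 9.47 for males. It stood above each named HOXA locus and above their sum of 9.59 and 7.38 FPKM, in which it is not counted. Of the 21, 14 were tested and 0 called in the authors' deposited table, beside 2.34% of all tested loci, and their lowest p was 0.111. Which of them are antisense or extended HOX transcripts was not tested.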
